A study of Mus musculus with 50 samples.

Results

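Mice without caspase-8 in intestinal epithelial cells (CASP8 IEC-KO) were compared with mice without its adaptor FADD in the same cells (FADD IEC-KO), with no second gene deleted in either. The arrays were chosen by their titles, which gave 20 of the 50 colon arrays of the series, 10 CASP8 IEC-KO and 10 FADD IEC-KO. Title numbers fall into 2 series, 1 to 30 and 86 to 124, and each genotype has 5 arrays in each series (CASP8 IEC-KO replicates 16 to 20, then 87, 92, 100, 104 and 108, FADD IEC-KO replicates 21 to 25, then 89, 95, 117, 120 and 124). What the 2 series are is not said in the labels, so the difference was taken within each series and the 2 differences were averaged. Groups used beside these, with 5 arrays each, were CASP8 IEC-KO Mlkl -/- and FADD IEC-KO Mlkl -/- (titles 1 to 30), which also lack Mlkl, then Casp8 fl/fl (titles 86 to 124) and Fadd fl/fl (titles 1 to 30), whose floxed gene is intact. FADD IEC-KO Zbp1 -/- (titles 1 to 30) and FADD IEC-KO RIPK3 IEC-KO (titles 86 to 124), also with 5 arrays each, are compared with nothing here, but entered the fit of all 50 arrays that estimates the spread. The mice were 10 to 12 weeks old, had regular chow in a specific-pathogen-free facility and gave 100 ng of colon RNA per array. The labels do not name the Cre driver that deletes the floxed genes, and do not say that each array is another animal. The p-values therefore measure the spread between arrays within groups, pooled over all 50 arrays. The RNA came from colon tissue and not from sorted cells, so fewer cells of a type and less RNA per cell cannot be told apart in any value that follows.

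Caspase-8 is a protease that starts apoptosis when death receptors of the tumour necrosis factor family are engaged, and FADD is the adaptor that recruits it to them. Together they also hold back necroptosis, a lytic death in which the kinase RIPK3, alone with RIPK1 or brought in by the nucleic acid sensor ZBP1, activates the membrane-permeabilising protein MLKL. Caspase-8 can further cleave gasdermins and act as a scaffold, so loss of the protease and loss of its adaptor need not be the same lesion. In the intestine, loss of either gene in epithelial cells is known to cause epithelial cell death and inflammation. The comparison asks how far the colon differs between the 2 deletions.

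The targeted genes followed the labels in every array. Casp8 had log2 signals of 8.93, 9.12, 9.29, 9.09, 9.27, 8.98, 8.97, 8.87, 9.48 and 8.60 in CASP8 IEC-KO colons, against 10.59, 10.79, 10.73, 10.73, 10.57, 10.96, 10.77, 10.71, 10.76 and 10.79 in FADD IEC-KO colons, replicates in the order given above. Fadd had 7.40, 7.50, 7.58, 7.63, 7.95, 7.73, 7.29, 7.72, 7.66 and 7.20 in CASP8 IEC-KO colons and 6.45, 6.50, 6.45, 6.32, 6.22, 6.07, 6.25, 6.23, 5.83 and 6.33 in FADD IEC-KO colons. Neither gene overlapped between the genotypes, and each was low where its own deletion was labelled. The log2 difference, CASP8 IEC-KO minus FADD IEC-KO as throughout, was -1.68 ± 0.08 (SE) for Casp8 and 1.30 ± 0.08 for Fadd. Limma's moderated test, with Benjamini-Hochberg adjustment over 19494 genes, gave adjusted p = 9.25e-21 for Casp8 and adjusted p = 2.07e-16 for Fadd. The sources used here do not say whether these probe sets cover the exons that Cre removes.

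At an adjusted p under 0.05, the limit for a gene called different here, 1000 of 19494 genes (5.13%) differed between CASP8 IEC-KO and FADD IEC-KO colons. Of these, 585 were lower (3%) and 415 higher (2.13%) in CASP8 IEC-KO. The larger differences were nearly all on the lower side: 56 genes were lower and 3 higher by at least 1 log2 unit. Titles 1 to 30 alone gave 1315 genes (6.75%), 670 of them lower (3.44%) and 645 higher (3.31%). Titles 86 to 124 alone gave 32 genes (0.164%), 17 lower (0.0872%) and 15 higher (0.0769%). Of the 1000 genes, 998 had the same sign in titles 1 to 30 and 991 in titles 86 to 124, a description only, since both series enter the average. Across all genes, which are not independent replicates, the differences in the 2 series had a Pearson correlation of 0.405 and a Spearman correlation of 0.223. Their SD over genes was 0.275 in titles 1 to 30 and 0.177 in titles 86 to 124.

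Of 12 colon epithelium markers, 1 was higher in CASP8 IEC-KO than in FADD IEC-KO colons, Car1, and 1 was lower, Muc2, both described with their cell types below. Epcam, an adhesion molecule of epithelial cells, ranged from 11.77 to 12.05 in CASP8 IEC-KO colons and from 11.74 to 12.00 in FADD IEC-KO colons, a difference of -0.01. Hoxb13, a homeobox gene of the distal colon, ranged from 8.73 to 9.50 in CASP8 IEC-KO and from 8.64 to 9.47 in FADD IEC-KO. The small-intestinal brush-border enzyme genes Lct and Sis stayed at or below 5.75 on every one of the 20 arrays. The ranges of Epcam and Hoxb13 overlapped, and none of the 20 small intestine markers passed by limma in either direction (6 had an unadjusted p under 0.05). Median signals of all 50 arrays lay between 6.41 and 6.47. Judged by Y-linked genes, 3 of 10 CASP8 IEC-KO and 5 of 10 FADD IEC-KO colons were from males.

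Some arrays stood apart from their group in inflammatory genes. FADD IEC-KO replicates 22, 23 and 117 were the highest in neutrophil genes, FADD IEC-KO replicate 21 was the lowest of its 5 in many interferon genes, and CASP8 IEC-KO replicate 104 was the highest of the CASP8 IEC-KO colons in interferon genes. Without FADD IEC-KO replicate 117 the count of 1000 became 417, and without replicates 22, 23 and 124 in turn it became 451, 611 and 580. It was 1795 without FADD IEC-KO replicate 21 and 1712 without CASP8 IEC-KO replicate 104. Leaving out CASP8 IEC-KO replicates 92, 108, 16, 100 and 18 in turn gave 530, 589, 650, 650 and 656. Leaving out FADD IEC-KO replicates 22 and 23 together gave 135 genes, and leaving out those 2 and CASP8 IEC-KO replicate 104 gave 394. A fit of the 20 arrays alone, whose spread is not pooled with that of the other 30 arrays, gave 41 genes. Spread was unequal between groups. The median SD of the interferon-gamma GTPases (below) was 0.97 and 0.74 in FADD IEC-KO and 0.44 and 1.01 in CASP8 IEC-KO, titles 1 to 30 first. It was 0.19 to 0.24 in the floxed and Mlkl -/- groups. For neutrophil markers it was 1.58 and 1.19, 0.33 and 0.37, and 0.19 to 0.22. The pooled spread is thus smaller than that of FADD IEC-KO for such genes. Each list below that had a call, except the pancreas and mesenteric fat markers, is therefore given also without replicates 22 and 23, and from the 20 arrays alone. List counts are to be read beside the 5.13% of all genes that passed. Calls in a single title series are no test of a difference between the series. No list member passed the test of that difference, which is given near the end of the Results.

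The genes whose CASP8 IEC-KO and FADD IEC-KO arrays stayed apart in both title series were few. Lower with 5 and 5 arrays apart in each series were 5 genes (0.0256%), Ccl8, Casp8, Hgfac, Tcirg1 and Wdr76, and higher were 6 (0.0308%), Pisd-ps3, Fadd, Myo3a, Zfp532, Arl14 and Lama3. Ccl8, a chemokine that draws monocytes and other leukocytes, had 5.17, 6.04, 4.84, 4.75, 5.24, 5.31, 4.64, 4.50, 5.80 and 4.81 in CASP8 IEC-KO colons, against 6.85, 7.05, 7.26, 6.52, 6.41, 6.15, 6.24, 7.18, 5.84 and 6.70 in FADD IEC-KO colons. Floxed colons ranged from 4.30 to 4.76 (Casp8 fl/fl) and from 4.29 to 4.99 (Fadd fl/fl). All FADD IEC-KO arrays were thus above all floxed arrays, while CASP8 IEC-KO arrays reached from within the floxed range to above it. Ccl8 fell by 1.51 ± 0.18 log2 units in CASP8 IEC-KO (2.85-fold, limma adjusted p = 2.61e-07). The difference was -1.61 in titles 1 to 30 (adjusted p = 0.00017) and -1.41 in titles 86 to 124 (adjusted p = 0.00388), and it passed in all 31 alternatives that tested it (the filter on dim genes removed it).

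Hgfac encodes the protease that activates hepatocyte growth factor, a driver of epithelial repair. Its lowest, median and highest values were 7.69, 8.26 and 8.45 in CASP8 IEC-KO colons, against 8.54, 8.65 and 9.35 in FADD IEC-KO colons, so that all 10 and 10 arrays were apart. Floxed colons averaged 8.16 (Casp8 fl/fl) and 8.36 (Fadd fl/fl), on the CASP8 IEC-KO side of that gap. Tcirg1, a subunit of the vacuolar proton pump, differed by -0.39 ± 0.07 (adjusted p = 0.000244), and Wdr76, a WD-repeat protein, by -0.38 ± 0.08 (adjusted p = 0.0032). On the higher side, Myo3a, a motor protein with a kinase domain, had 6.22, 6.63 and 6.95 as lowest, median and highest values in CASP8 IEC-KO, against 4.53, 5.83 and 6.08 in FADD IEC-KO. Its difference was 0.94 ± 0.16 (adjusted p = 0.000263). Lama3, the laminin alpha-3 chain of epithelial basement membranes, was higher by 0.54 ± 0.10 (adjusted p = 0.00119), and Arl14, a small GTPase of the ARF family, by 0.61 ± 0.13 (adjusted p = 0.0031). For Arl14 and Lama3 the 10 and 10 arrays overlapped only when the series were joined. Joined, 3 genes stayed apart on the lower side (0.0154%, Casp8, Hgfac and Wdr76) and 4 on the higher side (0.0205%, Fadd, Pisd-ps3, Zfp532 and Myo3a).

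**Figure D1:**
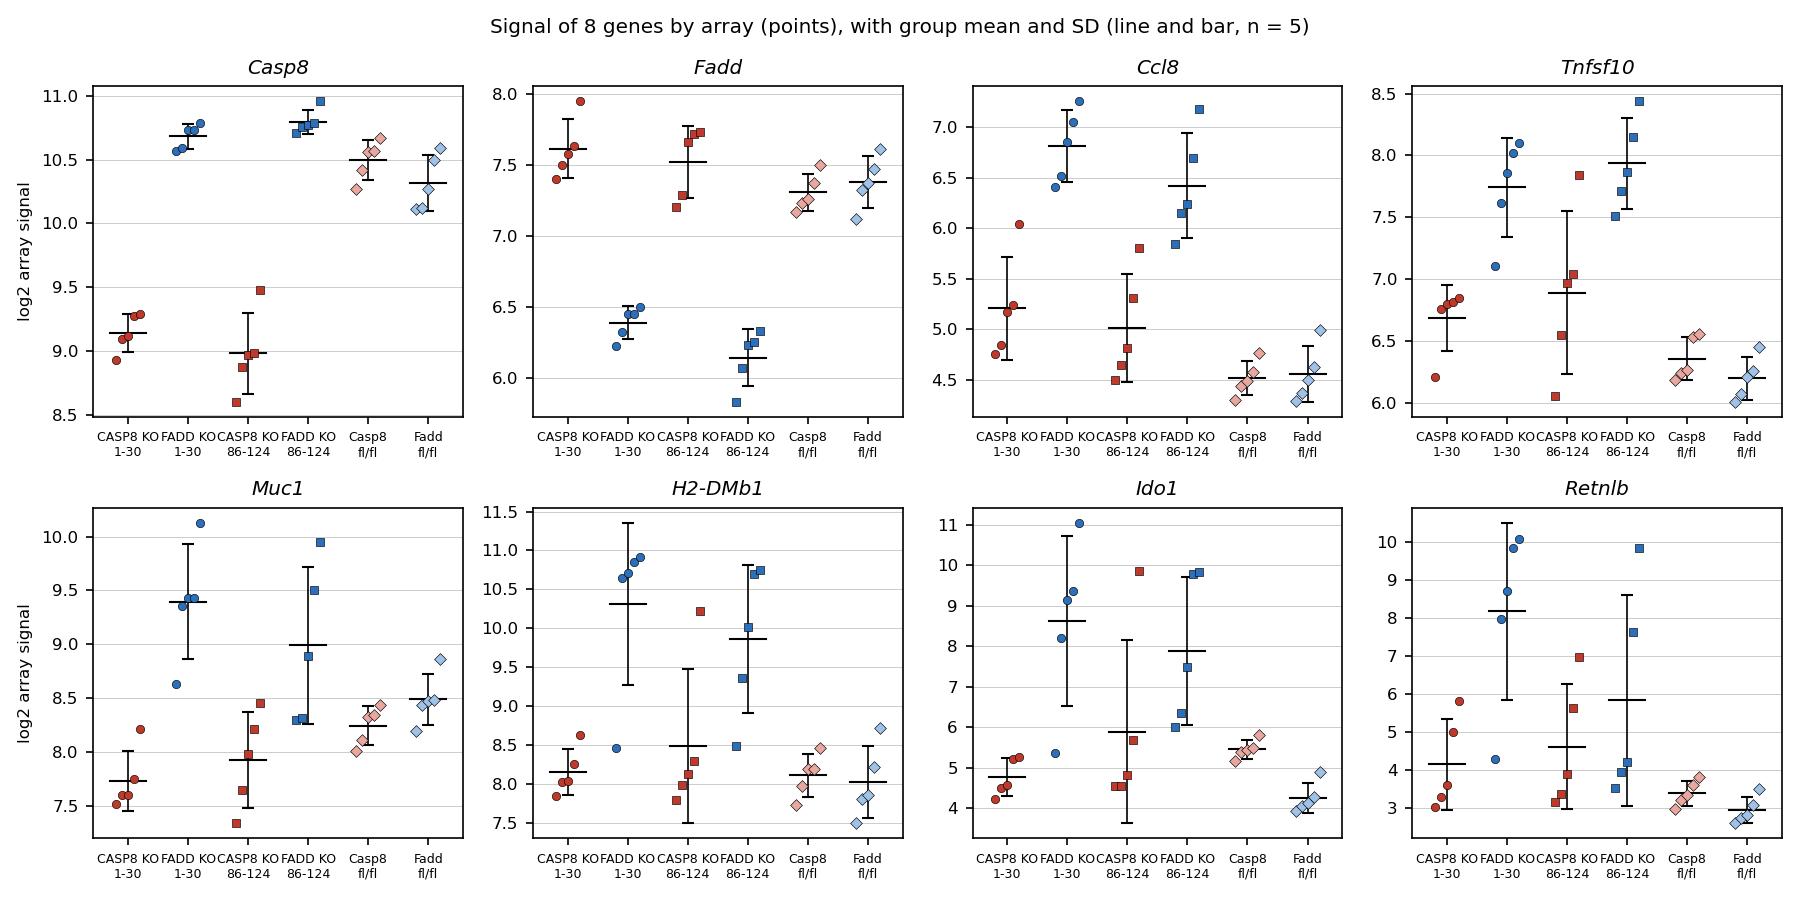
Log2 signal (vertical axes) of 8 genes on each array, in CASP8 IEC-KO, FADD IEC-KO, Casp8 fl/fl and Fadd fl/fl colons. Circles are titles 1 to 30, squares titles 86 to 124 and diamonds floxed colons, and lines and bars are the mean and SD. Casp8 and Fadd separate the genotypes fully, Ccl8 and Muc1 are high in most FADD IEC-KO colons, and Ido1 and Retnlb spread over several log2 units in FADD IEC-KO with CASP8 IEC-KO replicate 104 among the high arrays for Ido1.

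Other genes with large differences overlapped between arrays to varying degrees. Muc1, a membrane-bound mucin, had 7.60, 8.21, 7.75, 7.60, 7.52, 8.21, 7.34, 7.98, 8.46 and 7.65 in CASP8 IEC-KO colons and 8.63, 9.43, 10.13, 9.43, 9.36, 8.32, 8.89, 9.95, 8.30 and 9.50 in FADD IEC-KO colons. It fell by 1.36 ± 0.16 in CASP8 IEC-KO (2.57-fold, limma adjusted p = 2.5e-07), with -1.66 in titles 1 to 30 and -1.06 in titles 86 to 124 (adjusted p = 0.0229). The arrays were apart in titles 1 to 30, and in titles 86 to 124 CASP8 IEC-KO replicate 104 reached into the FADD IEC-KO range. Against floxed colons, Muc1 differed by -0.75 (adjusted p = 0.155) and -0.32 in CASP8 IEC-KO of titles 1 to 30 and 86 to 124, and rose by 0.91 (adjusted p = 0.00359) and 0.74 (adjusted p = 0.025) in FADD IEC-KO of the same series. Of all genes, 0.123% and 2.46% differed between CASP8 IEC-KO and floxed colons, and 18.7% and 11% between FADD IEC-KO and floxed colons, in the same order of series. The floxed colons were Fadd fl/fl in titles 1 to 30 and Casp8 fl/fl in titles 86 to 124. CASP8 IEC-KO of titles 1 to 30 and FADD IEC-KO of titles 86 to 124 were thus set against the other mouse line. There, line and deletion cannot be told apart. Pisd-ps3 and Zfp532 are taken up with the mouse lines below.

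**Figure D2:**
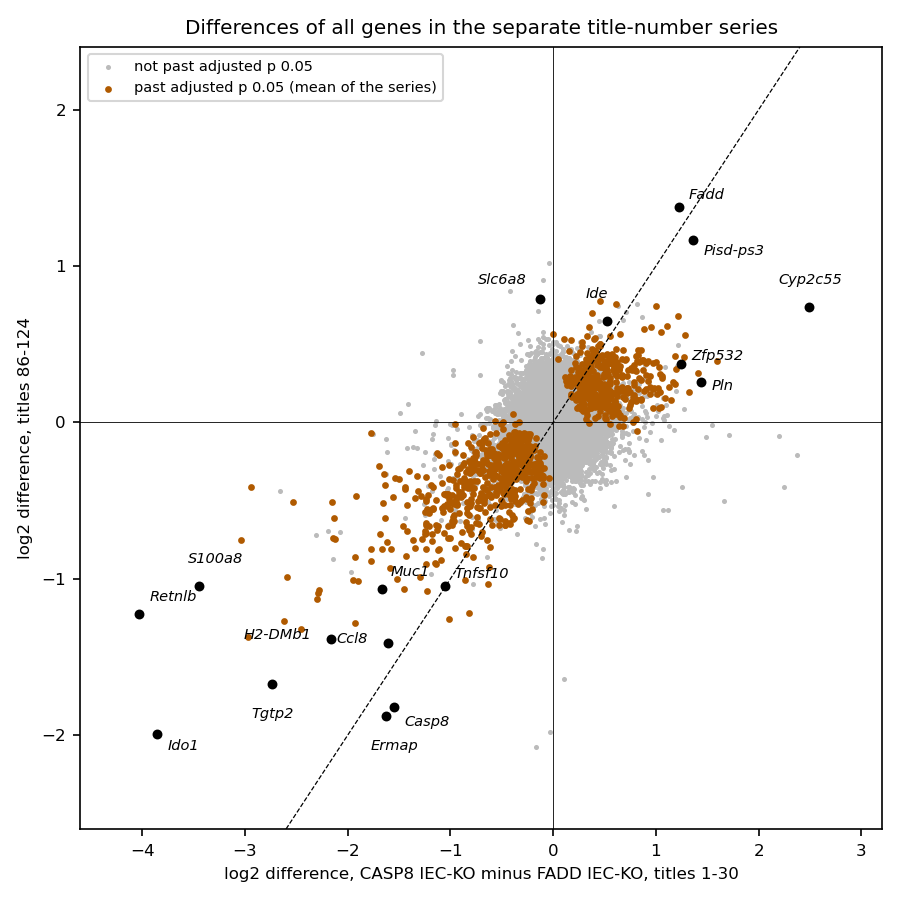
Log2 difference, CASP8 IEC-KO minus FADD IEC-KO, of each gene in titles 1 to 30 (horizontal axis) and in titles 86 to 124 (vertical axis), with the dashed diagonal of equal differences. Orange points passed in the average of the series (585 lower, 415 higher), grey points did not, and black points are labelled genes; Ido1 and Retnlb lie far to the left of the diagonal, at -3.85 and -4.03 in titles 1 to 30.

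Interferon-gamma, made by T cells, natural killer cells and innate lymphoid cells, switches on guanylate-binding proteins and immunity-related GTPases, which attack membranes that surround microbes. It does so through factors that bind 2 short DNA elements. One is the interferon-stimulated response element, searched for on both strands as its core, GAAA then any 2 bases then GAAA. The other is the gamma-activated site, searched for as TTC then any 3 bases then GAA, which is its own reverse complement. Promoters of 300 bases, 250 before to 50 after the start of transcription, were taken from RefSeq on GRCm38.p6. They are shown for 4 GTPase genes because these genes moved together, read 5′ to 3′ along the gene, with the matches of either element in capitals (overlapping matches run together).
Igtp: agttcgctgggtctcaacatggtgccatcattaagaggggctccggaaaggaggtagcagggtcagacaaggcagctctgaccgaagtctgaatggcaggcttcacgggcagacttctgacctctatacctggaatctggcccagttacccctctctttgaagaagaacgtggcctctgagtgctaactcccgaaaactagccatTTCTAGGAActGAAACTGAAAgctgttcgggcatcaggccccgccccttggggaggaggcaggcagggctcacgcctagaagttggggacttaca
Irgm1: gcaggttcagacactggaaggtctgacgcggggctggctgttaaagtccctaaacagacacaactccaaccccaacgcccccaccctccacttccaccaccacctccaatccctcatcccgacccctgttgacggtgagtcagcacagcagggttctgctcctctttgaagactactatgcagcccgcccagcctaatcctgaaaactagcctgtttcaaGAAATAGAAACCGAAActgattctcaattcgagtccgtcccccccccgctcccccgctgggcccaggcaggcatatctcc
Tgtp2: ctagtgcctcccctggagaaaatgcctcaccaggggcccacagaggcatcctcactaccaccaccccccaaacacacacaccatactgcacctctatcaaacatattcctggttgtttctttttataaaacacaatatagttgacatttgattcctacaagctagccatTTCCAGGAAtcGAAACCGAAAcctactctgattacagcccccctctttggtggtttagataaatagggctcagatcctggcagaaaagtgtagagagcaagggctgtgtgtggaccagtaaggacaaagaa
Gbp2: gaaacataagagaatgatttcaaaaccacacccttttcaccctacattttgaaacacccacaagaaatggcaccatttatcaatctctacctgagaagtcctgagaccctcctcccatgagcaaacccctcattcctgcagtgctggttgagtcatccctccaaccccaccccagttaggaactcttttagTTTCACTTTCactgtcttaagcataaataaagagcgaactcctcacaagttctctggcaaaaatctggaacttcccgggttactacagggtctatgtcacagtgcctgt

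The windows are chr11:58199306-58199605 (plus strand) for Igtp, chr11:48871371-48871670 (minus strand) for Irgm1, chr11:49064163-49064462 (minus strand) for Tgtp2 and chr3:142620413-142620712 (plus strand) for Gbp2. The interferon-stimulated element began at -34 in Igtp, at -30 and -24 in Irgm1 (overlapping), at -70 in Tgtp2 and at -59 in Gbp2, counted from the start. It was in 87.5% of the 8 promoters found for 7 of the 12 measured GTPase genes, against 3.44% of all 32851 promoters of the table. The gamma-activated element was in 50.0% against 8.3%. The other lists held the interferon-stimulated element in 29.4% (class I and immunoproteasome, 17 promoters), 10.0% (class II, 10 promoters) and 60.0% (type I interferon-stimulated genes, 25 promoters). These letters describe the windows and show no binding.

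All 12 measured interferon-gamma GTPase genes passed and were lower in CASP8 IEC-KO than in FADD IEC-KO colons, with a median difference of -1.02 against 0.009 over all genes tested. Igtp, an immunity-related GTPase, had 4.97, 6.49, 6.18, 6.92, 5.80, 6.64, 5.37, 6.64, 8.63 and 4.66 in CASP8 IEC-KO, against 6.12, 9.58, 8.42, 8.07, 7.82, 7.22, 6.72, 8.60, 8.01 and 7.80 in FADD IEC-KO. The ranges overlapped through FADD IEC-KO replicates 21 and 95 at the low end and CASP8 IEC-KO replicate 104 at the high end. Igtp fell by 1.61 ± 0.31 (3.05-fold, limma adjusted p = 0.00131). Tgtp2 had 4.98, 6.12, 5.79, 6.50, 5.49, 6.29, 5.18, 6.22, 9.26 and 5.02 in CASP8 IEC-KO, and 5.51, 10.28, 9.37, 8.81, 8.55, 7.29, 6.51, 9.89, 7.93 and 8.69 in FADD IEC-KO. It showed the same pattern of arrays, and fell by 2.20 ± 0.41 (4.59-fold, adjusted p = 0.001); it is a near copy of Tgtp1, so its signal may hold both. Iigp1 differed by -1.89 ± 0.33 (adjusted p = 0.000393), Gbp2 by -1.48 ± 0.31 (adjusted p = 0.00347) and Irgm1, a regulator of the family, by -0.98 ± 0.20 (adjusted p = 0.00255).

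By title series the median over the 12 GTPases was -1.33 in titles 1 to 30, where 12 passed, and -0.74 in titles 86 to 124, where 0 did by limma (10 had an unadjusted p under 0.05). The mean over the list was 6.29, 6.97, 6.78, 7.18, 6.42, 7.08, 6.46, 7.02, 8.85 and 6.25 in CASP8 IEC-KO, against 6.68, 9.60, 8.71, 8.48, 8.17, 7.59, 7.26, 9.07, 7.80 and 8.34 in FADD IEC-KO. Floxed colons had 6.20 to 6.64 (Casp8 fl/fl) and 6.12 to 6.59 (Fadd fl/fl). CASP8 IEC-KO colons thus began within the floxed range and, apart from replicate 104, ended below most FADD IEC-KO colons. Leaving out any 1 of the 20 arrays left 11 or 12 of the 12 genes called, and leaving out replicates 22, 23 and 104 together left 12. Without replicates 22 and 23, but with 104, 3 remained, and in the 20 arrays alone none passed by limma (12 at an unadjusted p under 0.05). Medians against floxed colons of the same title series were 0.40 and 0.70 for CASP8 IEC-KO (titles 1 to 30, then 86 to 124), and 1.74 and 1.38 for FADD IEC-KO. Each pair shares its floxed colons, Fadd fl/fl in titles 1 to 30 and Casp8 fl/fl in titles 86 to 124. For each knockout 1 of the 2 values is thus against the other mouse line.

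Antigen presentation genes were lower alongside. All 17 measured genes of class I presentation and the immunoproteasome, which cuts proteins into the peptides that class I molecules show, were lower in CASP8 IEC-KO, with a median of -0.57 (-0.77 in titles 1 to 30, -0.46 in titles 86 to 124). By limma 17 passed in titles 1 to 30 alone and 0 in titles 86 to 124 alone (14 at an unadjusted p under 0.05). H2-D1, a class I heavy chain, had 9.08, 9.39 and 10.13 as lowest, median and highest values in CASP8 IEC-KO, against 9.65, 10.21 and 10.60 in FADD IEC-KO. The groups overlapped, and the difference was -0.71 ± 0.10 (limma adjusted p = 2.62e-05). Tap2, a subunit of the peptide transporter, had 7.27, 7.85 and 8.17 against 7.95, 8.29 and 8.76, and differed by -0.53 ± 0.08 (adjusted p = 5.08e-05). H2-K1 differed by -0.60 ± 0.09 (adjusted p = 8.97e-05) and H2-Q4 by -0.89 ± 0.14 (adjusted p = 0.000143); class I heavy chains are alike in sequence, so probe sets may share signal. The 17 calls became 14 without FADD IEC-KO replicates 22 and 23, and between 15 and 17 when 1 array was left out. In the 20 arrays alone 2 passed.

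Of 11 class II presentation genes, 8 were lower and none was higher (limma), with a median of -0.96 (-1.11 in titles 1 to 30, -0.70 in titles 86 to 124). Titles 1 to 30 alone gave 7 calls and titles 86 to 124 alone 0 by limma (8 at an unadjusted p under 0.05). H2-DMb1, which helps load peptides onto class II molecules, had 8.25, 8.62, 8.03, 8.02, 7.84, 8.12, 7.79, 7.98, 10.22 and 8.29 in CASP8 IEC-KO, against 8.46, 10.71, 10.85, 10.64, 10.92, 10.02, 9.36, 10.75, 8.49 and 10.70 in FADD IEC-KO. Apart from CASP8 IEC-KO replicate 104 and FADD IEC-KO replicates 21 and 120, the genotypes formed separate groups, with floxed colons (7.72 to 8.46 in Casp8 fl/fl, 7.50 to 8.71 in Fadd fl/fl) beside CASP8 IEC-KO. H2-DMb1 fell by 1.78 ± 0.26 (3.43-fold, limma adjusted p = 2.78e-05), and its call held in every alternative. Its partner H2-DMa differed by -1.26 ± 0.20 (adjusted p = 0.000171), and the class II chains H2-Ab1 and H2-Aa by -1.24 ± 0.22 (adjusted p = 0.000439) and -1.26 ± 0.23 (adjusted p = 0.000868). Class II molecules are made by antigen-presenting cells and, under interferon-gamma, by epithelium, which this tissue RNA does not separate. Without replicates 22 and 23, 6 genes passed, and 6 passed without FADD IEC-KO replicate 117. In the 20 arrays alone 1 passed.

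Of 21 genes of interferon-gamma signalling and feedback, 8 were lower and none was higher, with a median of -0.33. Ido1, the enzyme that starts tryptophan breakdown, had 4.58, 5.23, 4.51, 5.28, 4.23, 5.69, 4.55, 4.83, 9.85 and 4.55 in CASP8 IEC-KO, against 5.36, 11.05, 9.14, 9.36, 8.20, 7.48, 6.00, 9.77, 6.36 and 9.83 in FADD IEC-KO. In CASP8 IEC-KO replicate 104 alone was high, and FADD IEC-KO arrays were spread from near the CASP8 IEC-KO level to the highest value of all. The difference was -2.92 ± 0.52 (limma adjusted p = 0.000539), -3.85 in titles 1 to 30 and -1.99 in titles 86 to 124. Irf1, a transcription factor of the response, differed by -0.62 ± 0.12 (adjusted p = 0.00214), Lgals9, a galectin that acts on T cells, by -0.75 ± 0.16 (adjusted p = 0.00328) and Wars, a tRNA synthetase, by -0.53 ± 0.12 (adjusted p = 0.00516). Ifng itself was dim and differed by -0.33 (adjusted p = 0.402). The 8 calls ranged from 6 to 10 when 1 array was left out, became 2 without FADD IEC-KO replicates 22 and 23 and 0 in the 20 arrays alone (9 at an unadjusted p under 0.05).

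Genes of the type I interferon response, which antiviral sensing induces, were lower where they passed. Of 30 measured, 8 were lower and none was higher, with a median of -0.36 (-0.34 in titles 1 to 30, -0.33 in titles 86 to 124). Titles 1 to 30 alone gave 5 calls and titles 86 to 124 alone 0 by limma (11 at an unadjusted p under 0.05). Parp9 and its partner Dtx3l, a pair that modifies histones and STAT signalling, differed by -0.66 ± 0.14 (limma adjusted p = 0.00328) and by -0.61 (adjusted p = 0.00816), and Ddx58, the RNA sensor RIG-I, by -0.51 (adjusted p = 0.0157). The count depended on single arrays. It was 3 without CASP8 IEC-KO replicate 108 and 16 without CASP8 IEC-KO replicate 104, 1 without FADD IEC-KO replicates 22 and 23, and 0 in the 20 arrays alone (15 at an unadjusted p under 0.05). Ifit1 (-0.31), Isg15 (-0.41) and Mx1 (-0.27), effectors against viral RNA and replication, did not pass. Against floxed colons the list's medians were 0.30 and 0.31 in CASP8 IEC-KO (titles 1 to 30, then 86 to 124) and 0.67 and 0.62 in FADD IEC-KO. The floxed line was Fadd fl/fl in titles 1 to 30 and Casp8 fl/fl in titles 86 to 124.

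**Figure D3:**
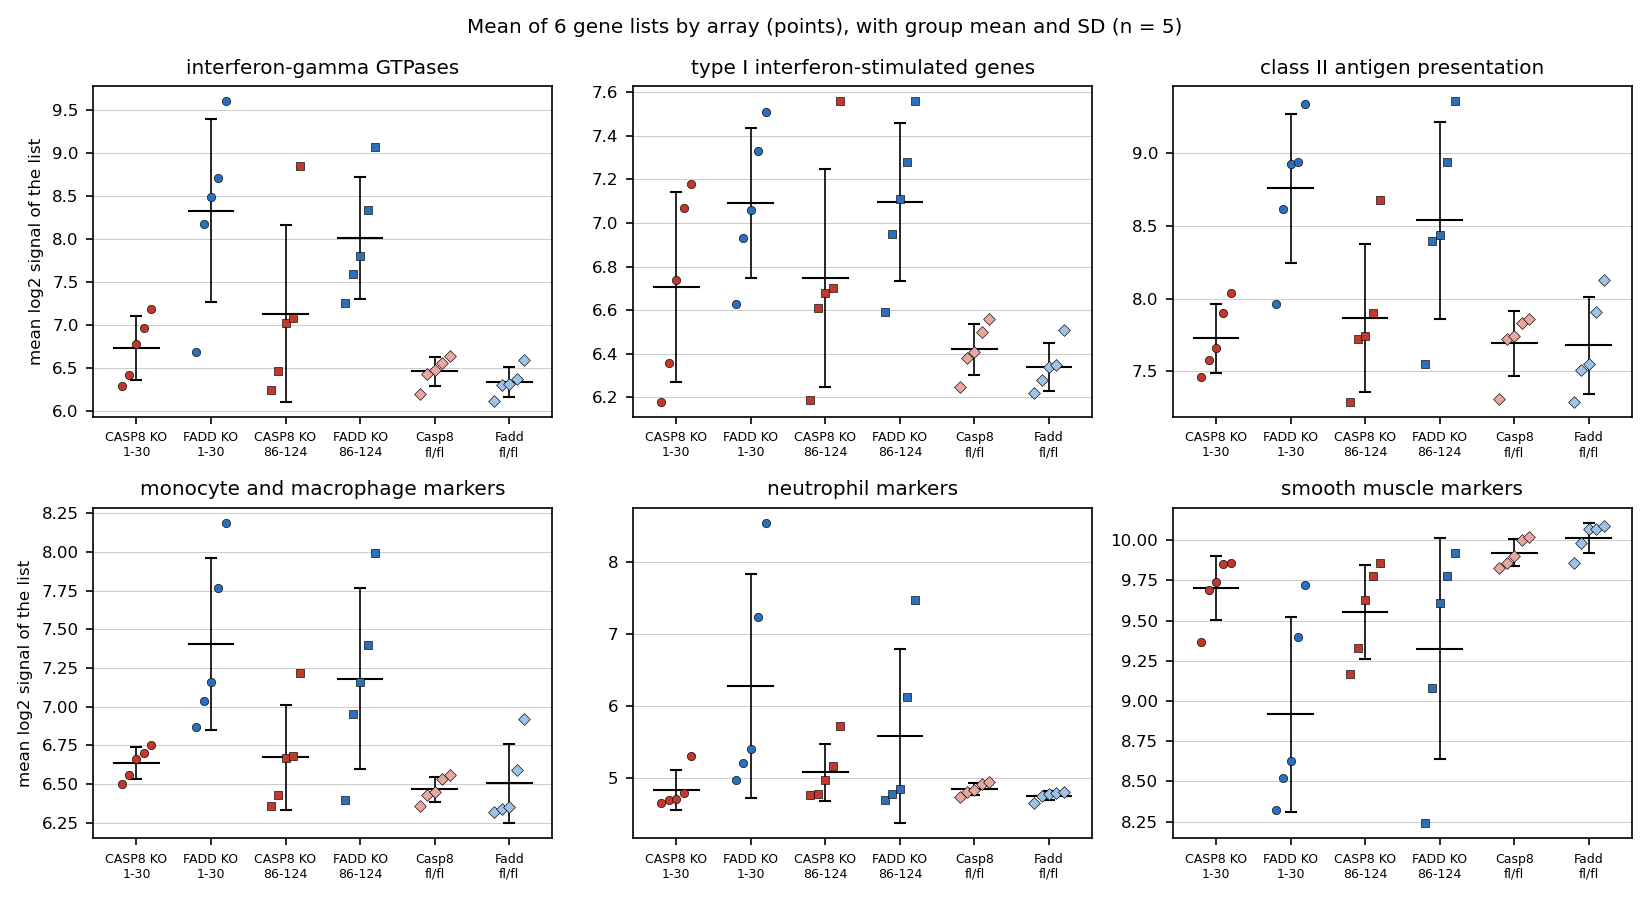
Mean log2 signal (vertical axes) over the measured members of 6 gene lists on each array, in CASP8 IEC-KO, FADD IEC-KO, Casp8 fl/fl and Fadd fl/fl colons. Circles are titles 1 to 30, squares titles 86 to 124 and diamonds floxed colons. Lines and bars are the mean and SD. FADD IEC-KO colons spread from near the floxed level upward in interferon-gamma GTPases (6.68 to 9.60) and neutrophil markers (4.69 to 8.55), and smooth muscle markers are lowest in FADD IEC-KO replicates 22, 23 and 117.

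In the death pathway itself, 4 of 20 genes of the death complex and of necroptosis were lower and 1 was higher in CASP8 IEC-KO. The targeted Casp8 and Fadd are 2 of these 5, and Zbp1, Ripk3 and Mlkl were the others. Zbp1 had 5.74, 6.26 and 7.80 as lowest, median and highest values in CASP8 IEC-KO, against 6.34, 7.35 and 8.03 in FADD IEC-KO, a difference of -0.82 ± 0.19 (limma adjusted p = 0.00785). Ripk3 had 6.83, 7.46 and 8.46 against 7.39, 8.01 and 9.66, a difference of -0.72 ± 0.18 (adjusted p = 0.0125), and Mlkl had 8.06, 8.70 and 9.54 against 8.59, 9.21 and 9.56, a difference of -0.48 ± 0.12 (adjusted p = 0.0132). All 3 overlapped between genotypes and pointed the same way in both title series (-0.98 and -0.65 for Zbp1, -0.98 and -0.46 for Ripk3, -0.53 and -0.43 for Mlkl, titles 1 to 30 first). Their calls were lost without FADD IEC-KO replicates 22 and 23 and in the 20 arrays alone, each of which left 1 lower and 1 higher call in the list. They held when any 1 array was left out. Cflar, which encodes the caspase-8 relative cFLIP, differed by 0.05 (adjusted p = 0.701).

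Among 15 death ligands and receptors 5 were lower and none was higher (limma). Tnfsf10, which encodes TRAIL, had 6.21, 6.76, 6.85, 6.80, 6.82, 7.04, 6.55, 6.97, 7.84 and 6.06 in CASP8 IEC-KO, against 7.11, 8.10, 8.02, 7.62, 7.86, 7.71, 7.51, 8.44, 8.15 and 7.87 in FADD IEC-KO. It was apart in titles 1 to 30, and in titles 86 to 124 it overlapped through CASP8 IEC-KO replicate 104. Floxed colons ranged from 6.19 to 6.56 (Casp8 fl/fl) and from 6.01 to 6.45 (Fadd fl/fl). The difference was -1.05 ± 0.14 (2.07-fold, adjusted p = 1.07e-05), close to equal in the 2 title series (-1.06 and -1.04), and its call held in every alternative. Ltb, a chain of lymphotoxin, differed by -0.41 ± 0.09 (adjusted p = 0.0038). Tnf differed by -0.99 ± 0.30 (adjusted p = 0.0458), with -1.70 in titles 1 to 30 and -0.28 in titles 86 to 124. Without FADD IEC-KO replicates 22 and 23 the 5 calls became 2, and so they did without CASP8 IEC-KO replicate 16. In the 20 arrays alone 1 passed.

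Of 24 inflammasome and pyroptosis genes 4 were higher and 3 lower. Il18bp, the decoy that neutralises interleukin-18, had 6.40, 6.71 and 7.74 as lowest, median and highest values in CASP8 IEC-KO, against 6.95, 7.65 and 8.47 in FADD IEC-KO, and fell by 0.80 ± 0.14 (limma adjusted p = 0.000536). Nlrp9b, an intestinal inflammasome sensor, was higher by 0.47 ± 0.11 (adjusted p = 0.00938), and so was Gsdmc4, a gasdermin C of the colon epithelium, by 0.32 ± 0.08 (adjusted p = 0.0102). Gasdermin C genes are near copies of each other, so Gsdmc4 may hold signal of its neighbours. The 4 higher calls became 0, and the 3 lower calls 1, without FADD IEC-KO replicates 22 and 23. In the 20 arrays alone none of the 24 passed by limma (10 at an unadjusted p under 0.05). Of 20 executioner and BCL2 family genes 2 were lower and none was higher. They were Bcl2a1d (-0.74, adjusted p = 0.0155) and Bcl2a1b (-0.68, adjusted p = 0.0163), near-identical anti-apoptotic genes of leukocytes whose probe sets may read 1 signal. Both calls were lost without FADD IEC-KO replicate 22 or replicate 117 (adjusted p up to 0.0556 and 0.0564). Without replicates 22 and 23, and in the 20 arrays alone, the list had no call by limma (3 at an unadjusted p under 0.05 in each).

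Ccl8 had the lowest adjusted p of the chemokines. Of 27 chemokines 4 were lower and 1 was higher, with a median of -0.39. Ccl12, a monocyte attractant, differed by -0.50 ± 0.12 (limma adjusted p = 0.0106), and Ccl25, which guides lymphocytes to the gut, by 0.21 ± 0.05 (adjusted p = 0.0152). The 4 lower calls became 2 without FADD IEC-KO replicate 22, 2 without replicates 22 and 23, and 13 without FADD IEC-KO replicate 21. In the 20 arrays alone 1 passed. Of 23 genes of the interleukin-1, interleukin-6 and interleukin-17 axis 3 were lower and 1 was higher. The 3, Il1b (-2.17 ± 0.61, adjusted p = 0.0283), Osm (-0.69, adjusted p = 0.0296) and Il1a (-1.40 ± 0.42, adjusted p = 0.0398), lost their calls without FADD IEC-KO replicates 22 and 23. Without CASP8 IEC-KO replicate 92 or FADD IEC-KO replicate 22, 23 or 117 alone each also missed the limit, and each did so without further arrays, with adjusted p up to 0.0974 for Il1b, 0.100 for Osm and 0.130 for Il1a. The list had 0 lower calls without CASP8 IEC-KO replicate 92 and 8 without FADD IEC-KO replicate 21. The higher gene was Il23a, a subunit of interleukin-23, with 4.73, 4.86 and 5.25 as lowest, median and highest values in CASP8 IEC-KO, against 4.31, 4.50 and 4.88 in FADD IEC-KO. It was dim, its groups overlapped little, and it differed by 0.38 ± 0.09 (adjusted p = 0.0112), 0.28 in titles 1 to 30 and 0.49 in titles 86 to 124. Its call held in the 20 arrays alone and was lost without FADD IEC-KO replicates 22 and 23 (adjusted p = 0.0538), where the list had no call by limma (6 at an unadjusted p under 0.05).

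Marker genes of leukocytes were lower in CASP8 IEC-KO as far as they passed. Of 24 monocyte and macrophage markers 19 were lower and none was higher, with a median of -0.71 (-0.85 in titles 1 to 30, -0.52 in titles 86 to 124). In titles 1 to 30 alone 17 were lower and 1 was higher. In titles 86 to 124 alone 0 passed by limma (13 at an unadjusted p under 0.05). Clec4n, a lectin receptor for fungal sugars, differed by -0.95 ± 0.19 (limma adjusted p = 0.00184), Ccr2, the receptor that brings monocytes into tissue, by -0.97 ± 0.20 (adjusted p = 0.00293), and the complement component C1qc by -0.54 (adjusted p = 0.0038). Itgam, the CD11b integrin chain, had 5.81, 6.20 and 6.60 as lowest, median and highest values in CASP8 IEC-KO and 6.29, 6.89 and 8.89 in FADD IEC-KO, a difference of -0.88 (adjusted p = 0.00337). The 2 ranges overlapped, with a long upper tail in FADD IEC-KO. The 19 calls became 13 without FADD IEC-KO replicate 22 and 1 without replicates 22 and 23. They were 12 without replicates 22, 23 and 104, and 0 in the 20 arrays alone (21 at an unadjusted p under 0.05).

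Of 19 neutrophil markers 9 were lower and none was higher, with a median of -0.89 (-1.25 in titles 1 to 30, -0.57 in titles 86 to 124). By limma 15 passed in titles 1 to 30 alone and 0 in titles 86 to 124 alone (1 at an unadjusted p under 0.05). The list mean was 4.79, 5.31, 4.69, 4.65, 4.71, 5.16, 4.76, 4.77, 5.72 and 4.97 in CASP8 IEC-KO, against 4.97, 8.55, 7.24, 5.21, 5.40, 4.85, 4.69, 7.48, 4.77 and 6.12 in FADD IEC-KO. Only FADD IEC-KO replicates 22, 23, 117 and 124 were above the highest CASP8 IEC-KO colon, and the other 6 lay within its range, near the floxed colons (4.65 to 4.94). S100a8, a subunit of the neutrophil protein calprotectin, had 2.96, 5.73, 2.72, 2.94, 3.57, 4.38, 3.08, 3.07, 6.51 and 3.48 in CASP8 IEC-KO, against 4.21, 11.26, 8.93, 5.48, 5.30, 3.22, 3.05, 9.69, 2.99 and 6.79 in FADD IEC-KO, a difference of -2.25 ± 0.63 (limma adjusted p = 0.0275). Its call was lost without CASP8 IEC-KO replicate 16, 18, 92, 100 or 108 or FADD IEC-KO replicate 22, 23, 117 or 124, with adjusted p up to 0.0940. Csf3r, the receptor for granulocyte colony-stimulating factor, differed by -1.01 ± 0.24 (adjusted p = 0.00982). The 9 calls became 1 without FADD IEC-KO replicate 22, 23, 117 or 124, or without CASP8 IEC-KO replicate 92. Without replicates 22 and 23 together, and in the 20 arrays alone, none passed by limma (7 and 13 at an unadjusted p under 0.05).

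Lymphocyte and dendritic cell markers followed. Of 26 T cell and cytotoxic markers 5 were lower, none was higher, and the median was -0.32. Cd3e, a chain of the T cell receptor complex, had 4.32, 5.02 and 6.06 as lowest, median and highest values in CASP8 IEC-KO, against 4.91, 5.82 and 6.63 in FADD IEC-KO, and differed by -0.72 (limma adjusted p = 0.00675). Of 18 B and plasma cell markers 3 were lower, Xbp1 (-0.28, adjusted p = 0.0108), Mzb1 (-0.92, adjusted p = 0.0201) and Pou2af1 (-0.63, adjusted p = 0.0301), and of 15 dendritic cell markers 2, the costimulatory ligands Cd86 (-0.60, adjusted p = 0.00809) and Cd80 (-0.82, adjusted p = 0.0109). Xbp1 is also a secretory cell factor that goblet cells express. The call of Mzb1 was lost without CASP8 IEC-KO replicate 108 or FADD IEC-KO replicate 22, 117 or 124 (adjusted p up to 0.0709), and that of Pou2af1 without any of 11 arrays (up to 0.0986). The T cell calls became 1 without CASP8 IEC-KO replicate 92 and 11 without FADD IEC-KO replicate 21, and the B and plasma cell calls 1 without CASP8 IEC-KO replicate 108. Without FADD IEC-KO replicates 22 and 23 none of these 3 lists had a call by limma (13, 5 and 5 members at an unadjusted p under 0.05), and none had in the 20 arrays alone (10, 4 and 5).

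In the epithelium, 11 of 31 antimicrobial and stress genes were lower and none was higher, with a median of -0.35 (-0.62 in titles 1 to 30, -0.36 in titles 86 to 124). By limma 13 passed in titles 1 to 30 alone and 0 in titles 86 to 124 alone (3 at an unadjusted p under 0.05). Pla2g2a, a secreted phospholipase that kills bacteria, had 5.89, 7.11 and 8.77 as lowest, median and highest values in CASP8 IEC-KO, against 6.33, 9.31 and 10.81 in FADD IEC-KO, and differed by -1.95 ± 0.38 (limma adjusted p = 0.00161). Retnlb, an antibacterial protein of goblet cells, had 3.31, 5.83, 3.62, 5.00, 3.03, 5.65, 3.18, 3.91, 6.99 and 3.37 in CASP8 IEC-KO, against 4.31, 9.85, 10.09, 7.98, 8.72, 3.55, 4.22, 9.84, 3.95 and 7.64 in FADD IEC-KO. FADD IEC-KO arrays fell into high ones and ones at the CASP8 IEC-KO level, the low ones being replicates 21, 89, 95 and 120. Retnlb differed by -2.63 ± 0.56 (adjusted p = 0.0038), -4.03 in titles 1 to 30 and -1.22 in titles 86 to 124. The 11 calls became 4 without FADD IEC-KO replicate 22, 2 without replicates 22 and 23, and 0 in the 20 arrays alone (16 at an unadjusted p under 0.05). Of 22 epithelial repair and fetal-like genes 4 were lower, among them Muc1 (given above) and Ly6e (-0.50, adjusted p = 0.00639), with 1 call without replicates 22 and 23, 1 in the 20 arrays alone and 2 without CASP8 IEC-KO replicate 92.

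Goblet cells make the mucus gel that keeps bacteria off the epithelium. Of 22 goblet cell markers 8 were lower and none was higher, with a median of -0.18 (-0.25 and -0.13 in titles 1 to 30 and 86 to 124). Titles 1 to 30 alone gave 6 calls and titles 86 to 124 alone 0 by limma (6 at an unadjusted p under 0.05). Muc2, the gel-forming mucin, had 12.53, 12.53, 12.69, 12.64, 12.59, 12.83, 12.56, 12.61, 12.63 and 12.55 in CASP8 IEC-KO, against 12.80, 12.76, 13.02, 12.95, 12.82, 12.83, 12.79, 12.83, 12.84 and 12.87 in FADD IEC-KO. The groups overlapped only through CASP8 IEC-KO replicate 87, but the difference was small, -0.24 ± 0.04 (1.18-fold, limma adjusted p = 0.000783). Floxed colons overlapped both knockouts, with 12.67, 12.71 and 12.84 (Casp8 fl/fl) and 12.61, 12.84 and 12.87 (Fadd fl/fl) as lowest, median and highest values. Against the floxed colons of the same title series Muc2 differed by -0.19 and -0.10 in CASP8 IEC-KO (titles 1 to 30 first). In FADD IEC-KO it differed by 0.09 and 0.10, and none of these differences passed by limma. Tff3, the trefoil peptide that protects mucus and aids repair, had 10.99, 11.26 and 11.58 as lowest, median and highest values in CASP8 IEC-KO, against 11.44, 11.62 and 11.82 in FADD IEC-KO, a difference of -0.40 ± 0.08 (adjusted p = 0.00131). Spink4, a secreted peptide of goblet cells, differed by -0.57 ± 0.12 (adjusted p = 0.0038). The 8 calls became 5 without FADD IEC-KO replicates 22 and 23, 3 without CASP8 IEC-KO replicate 16, and 1 in the 20 arrays alone, which was Tff3.

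Absorptive colonocyte markers were mixed. Of 28 genes 6 were higher and 2 lower, with a median of 0.19 (0.26 and 0.08 in titles 1 to 30 and 86 to 124). In titles 1 to 30 alone 7 were higher and 2 lower. In titles 86 to 124 alone 0 passed by limma (1 at an unadjusted p under 0.05). Car1, a carbonic anhydrase of mature colonocytes, had 12.37, 12.81 and 12.89 as lowest, median and highest values in CASP8 IEC-KO, against 11.05, 12.08 and 12.86 in FADD IEC-KO, and was higher by 0.69 ± 0.14 (limma adjusted p = 0.00214). Slc9a2, a sodium-proton exchanger, was higher by 0.55 ± 0.13 (adjusted p = 0.00843). Scnn1b, the beta chain of the epithelial sodium channel, fell by 0.73 ± 0.14 (adjusted p = 0.001), with 6.76, 7.22 and 7.67 in CASP8 IEC-KO, against 7.07, 7.95 and 8.62 in FADD IEC-KO. Scnn1b averaged 7.58 in Casp8 fl/fl and 7.73 in Fadd fl/fl, between the 2 knockout medians. Slc26a3, the chloride exchanger, differed by 0.37 (adjusted p = 0.141). The 6 higher calls became 2 without CASP8 IEC-KO replicate 92, 11 without FADD IEC-KO replicate 120 and 0 without FADD IEC-KO replicates 22 and 23, where 9 of the 28 genes had an unadjusted p under 0.05 and the 2 lower calls became 1. In the 20 arrays alone none of the 28 passed by limma (11 at an unadjusted p under 0.05).

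Of 16 tuft cell markers 3 were higher and none was lower, Dclk1 (0.43 ± 0.10, limma adjusted p = 0.00572), a kinase that marks these chemosensory cells, the interleukin-25 receptor chain Il17rb (0.53 ± 0.13, adjusted p = 0.0116) and the taste channel Trpm5 (0.56 ± 0.14, adjusted p = 0.0135). Limma made no tuft call without FADD IEC-KO replicates 22 and 23 (5 at an unadjusted p under 0.05) or in the 20 arrays alone (6). Of 17 stem cell and Wnt genes none passed by limma (2 at an unadjusted p under 0.05), Lgr5 differing by 0.02. Of 23 proliferation genes 1 was lower, near the 5.13% of all genes that passed. It was the replication helicase subunit Mcm4 (-0.39, limma adjusted p = 0.0436). Its call was lost without CASP8 IEC-KO replicate 16, 18, 20, 92, 100 or 108 or FADD IEC-KO replicate 22, 23, 24, 89, 117, 120 or 124 (adjusted p up to 0.118), as it was without replicates 22 and 23 and in the 20 arrays alone. Of 19 endoplasmic reticulum stress genes 9 were lower and none was higher, with a median of -0.28. Hyou1, a chaperone of the reticulum, had 9.10, 9.32 and 9.71 as lowest, median and highest values in CASP8 IEC-KO and 9.40, 9.83 and 10.38 in FADD IEC-KO, and fell by 0.47 (adjusted p = 0.00733). Those 9 calls became 4 without CASP8 IEC-KO replicate 92, and 0 without FADD IEC-KO replicates 22 and 23 (12 at an unadjusted p under 0.05) and in the 20 arrays alone (11). Of 30 xenobiotic and steroid metabolism genes 4 were higher, among them the drug efflux pump Abcb1a (0.78 ± 0.17, adjusted p = 0.00549), and 0 without replicates 22 and 23 (7 at an unadjusted p under 0.05) or in the 20 arrays alone (10). Cyp2c55, a cytochrome P450 of the colon epithelium, had 10.50, 10.40, 10.24, 9.46, 10.73, 8.80, 9.79, 9.34, 8.21 and 10.80 in CASP8 IEC-KO, against 10.21, 5.02, 7.95, 8.65, 7.03, 9.81, 9.71, 5.52, 10.92 and 7.31 in FADD IEC-KO. It was lowest in FADD IEC-KO replicates 22 and 117, and 5 FADD IEC-KO arrays, replicates 21, 24, 89, 95 and 120, lay within the CASP8 IEC-KO values or above them. The difference was 1.61 ± 0.45 (adjusted p = 0.0281), and its call was lost without CASP8 IEC-KO replicate 92 or 108 or FADD IEC-KO replicate 22, 117 or 124 (adjusted p up to 0.0974).

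Smooth muscle markers ran the other way. Of 22 measured, 15 were higher in CASP8 IEC-KO and none was lower, with a median of 0.50 (0.81 in titles 1 to 30, 0.22 in titles 86 to 124). In titles 1 to 30 alone 20 passed by limma. In titles 86 to 124 alone 0 did, and 0 had an unadjusted p under 0.05. Pln, phospholamban, a regulator of the calcium pump of muscle, had 6.01, 5.50, 6.30, 6.01, 6.02, 4.78, 6.22, 6.23, 4.82 and 5.98 in CASP8 IEC-KO, against 5.80, 4.07, 3.95, 4.80, 4.01, 5.73, 6.37, 4.42, 5.85 and 4.37 in FADD IEC-KO. It was low in FADD IEC-KO replicates 22, 23, 24, 25, 117 and 124 and in CASP8 IEC-KO replicates 87 and 104. The difference was 0.85 ± 0.21 (limma adjusted p = 0.0125), and floxed colons averaged 6.10 and 6.37 (Casp8 fl/fl, Fadd fl/fl). Pgm5 (0.62 ± 0.15, adjusted p = 0.0113), a protein of muscle attachment sites, and Hspb6 (0.63, adjusted p = 0.0127), a small heat shock protein of muscle, were higher as well. The list mean was 9.85, 9.37, 9.69, 9.74, 9.86, 9.33, 9.63, 9.78, 9.17 and 9.86 in CASP8 IEC-KO and 9.72, 8.52, 8.32, 9.40, 8.63, 9.78, 9.92, 8.24, 9.61 and 9.08 in FADD IEC-KO, with floxed colons at 9.83 to 10.09. The arrays lowest in muscle genes were those highest in neutrophil genes, whose means are given above; their part in the difference was not tested. The 15 calls became 3 without FADD IEC-KO replicate 117, 21 without FADD IEC-KO replicate 21, and 0 both without replicates 22 and 23 (17 at an unadjusted p under 0.05) and in the 20 arrays alone (20).

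Of 25 fibroblast and matrix genes 3 were lower, Grem1 (-0.52, limma adjusted p = 0.0132), an antagonist of bone morphogenetic proteins made by cells below the crypts, Timp1 (-0.49, adjusted p = 0.0335), an inhibitor of matrix proteases, and Mmp3 (-1.19, adjusted p = 0.0431), a matrix protease. Of 20 endothelial genes 2 were lower, Pdpn (-0.52, adjusted p = 0.0047), a lymphatic marker that fibroblasts also express, and Vcam1 (-0.53, adjusted p = 0.0316), an adhesion molecule for leukocytes. None was higher in either list, and neither had a call by limma without FADD IEC-KO replicates 22 and 23 (2 and 4 members at an unadjusted p under 0.05) or in the 20 arrays alone (3 and 4 members). None of the enteric neuron and glia markers (17), blood cell markers (5), circadian clock genes (16) or immediate early genes (19) passed by limma. At an unadjusted p under 0.05 there were 3, 0, 3 and 1 of them.

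**Figure D4:**
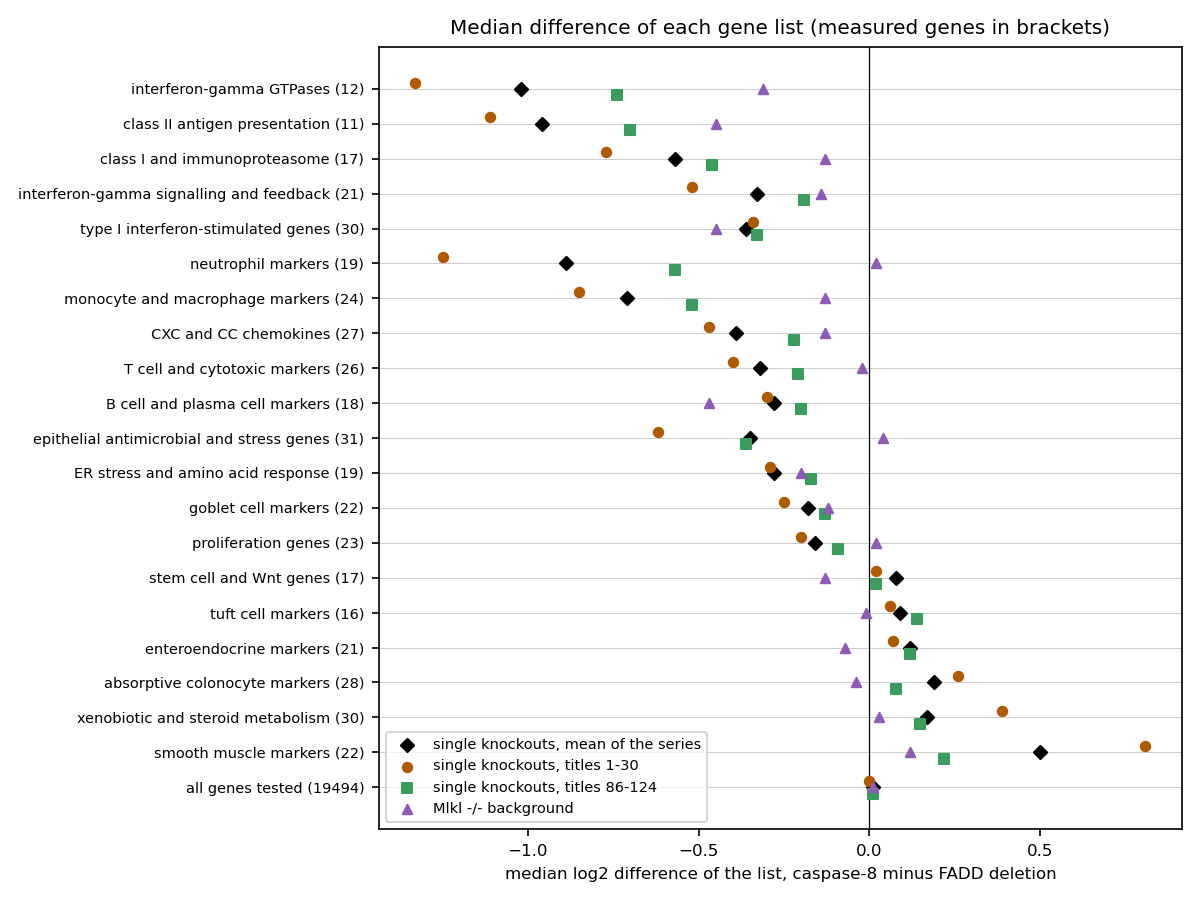
Median log2 difference over the members of each gene list (rows, members measured in brackets), CASP8 IEC-KO minus FADD IEC-KO, in titles 1 to 30 (circles), titles 86 to 124 (squares) and their average (diamonds), and in the Mlkl -/- pair (triangles). Interferon-gamma GTPases (-1.02), class II genes (-0.96) and neutrophil markers (-0.89) have the lowest averages and smooth muscle markers (0.50) the highest, and the Mlkl -/- pair has -0.31, -0.45, 0.02 and 0.12 for these 4 lists.

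The 41 genes that passed also in the 20 arrays alone were looked at as a set, chosen after their values were seen. Of these, 30 were lower and 11 higher, and 38 passed also without FADD IEC-KO replicates 22 and 23. They held complement genes. C4b, a complement C4 gene of the classical pathway, had 7.58, 7.90 and 8.38 as lowest, median and highest values in CASP8 IEC-KO, against 8.06, 8.69 and 9.33 in FADD IEC-KO. It fell by 0.72 ± 0.09 (1.65-fold, limma adjusted p = 2.64e-06), -0.95 in titles 1 to 30 and -0.49 in titles 86 to 124. C4a, a near copy of C4b whose probe set may read the same RNA, differed by -0.74 ± 0.11 (adjusted p = 1.89e-05). C6, a component of the membrane attack complex, was dim, with 3.66, 3.84 and 4.26 against 3.94, 4.87 and 5.58, and differed by -0.79 ± 0.14 (adjusted p = 0.000305). Presentation genes in the set were H2-D1, Tap2, H2-DMb1, H2-Q2 (-0.68, adjusted p = 3.08e-05) and Lap3 (-0.57, adjusted p = 4.07e-05), a peptidase induced by interferon-gamma. Sp140, a chromatin reader of immune cells, differed by -0.81 ± 0.13 (adjusted p = 0.000143), and Tnfsf13b, the B cell survival factor BAFF, by -0.47 (adjusted p = 0.000178).

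Epithelial and metabolic genes were in the set too. Abcg5, a subunit of the transporter that pumps plant sterols and cholesterol back into the lumen, had 6.36, 6.76 and 7.52 as lowest, median and highest values in CASP8 IEC-KO, against 7.18, 7.58 and 8.25 in FADD IEC-KO. It fell by 0.82 ± 0.15 (1.77-fold, limma adjusted p = 0.000953), and its partner Abcg8 by 0.55 ± 0.12 (adjusted p = 0.00635). The floxed lines differed the same way by -0.44 and -0.49, Casp8 fl/fl minus Fadd fl/fl, without passing. Without FADD IEC-KO replicates 22 and 23 the call of Abcg8 was lost (limma adjusted p = 0.0797) and that of Abcg5 held (adjusted p = 0.0163). Casp14, the caspase of skin cornification, had 7.02, 7.58 and 8.09 in CASP8 IEC-KO, against 7.82, 8.44 and 9.29 in FADD IEC-KO, so the groups overlapped in part. It fell by 0.88 ± 0.15 (1.84-fold, adjusted p = 0.000249), -0.96 in titles 1 to 30 and -0.80 in titles 86 to 124. Parp3, a DNA repair enzyme, differed by -0.44 (adjusted p = 2.34e-05) and Podnl1, a leucine-rich matrix protein, by -0.53 (adjusted p = 0.000783). On the higher side were Cyp2w1, a cytochrome P450 of the colon (0.44, adjusted p = 0.00119), Cyb5d2, a heme-binding protein (0.37, adjusted p = 0.00109), and Paqr5, a membrane progesterone receptor (0.41, adjusted p = 0.00351).

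**Figure D5:**
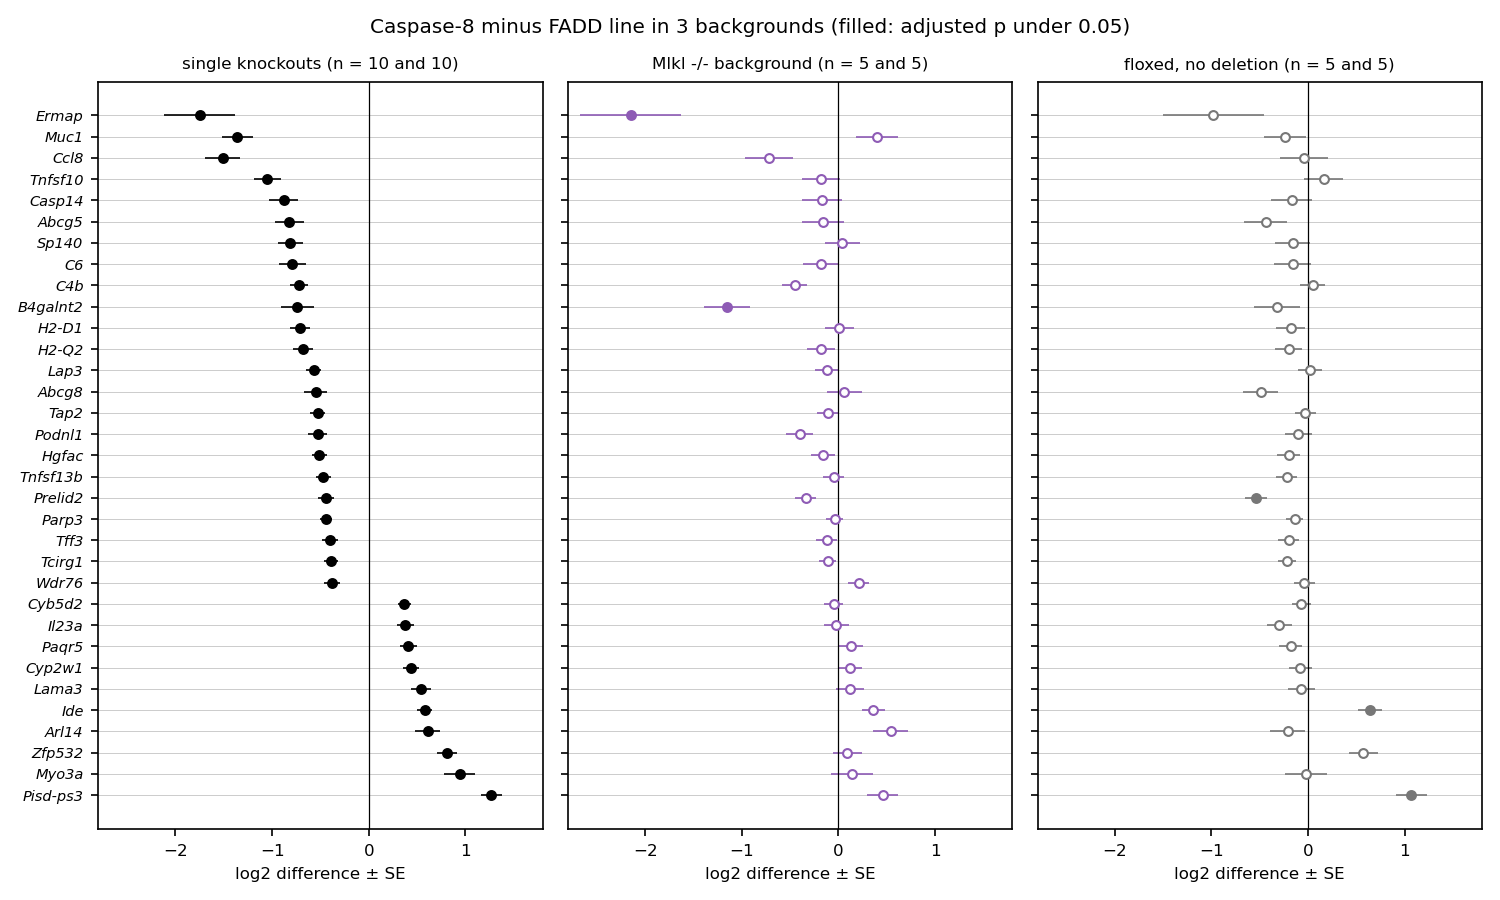
Log2 difference (horizontal axes) with its SE of the fit of all 50 arrays as bars, for 33 of the genes named in the text (rows), in 3 panels: CASP8 IEC-KO minus FADD IEC-KO, the same pair with Mlkl deleted, and Casp8 fl/fl minus Fadd fl/fl. Filled points passed at an adjusted p under 0.05: among the genes drawn, with Mlkl deleted these are Ermap (-2.15) and B4galnt2 (-1.15), and between the floxed lines Pisd-ps3 (1.07), Ide (0.64) and Prelid2 (-0.54).

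CASP8 IEC-KO Mlkl -/- and FADD IEC-KO Mlkl -/- colons offer the same comparison without MLKL, the executor of necroptosis, with 5 arrays each in titles 1 to 30. They are other mice than the 20 above. In them 89 genes (0.457%) differed, 47 lower (0.241%) and 42 higher (0.215%). Of these, 12 were among the 1000 genes of the single knockouts, 11 with the same sign, which is 1.1% of the 1000 and 12.4% of the 89. Casp8 fell by 1.61 (limma adjusted p = 4.14e-14) and Fadd was higher by 0.95 (adjusted p = 8.95e-07). The type I interferon-stimulated genes had a median of -0.45, against -0.36 in the single knockouts, with all 30 members below 0. Of these, 1 passed, Irf7 (-1.09, adjusted p = 0.0368), a transcription factor that amplifies the response, and 15 had an unadjusted p under 0.05. The B and plasma cell markers had a median of -0.47 (-0.28 in the single knockouts) and the class II genes -0.45 (-0.96), and neither list had a call by limma (4 and 1 members at an unadjusted p under 0.05). The interferon-gamma GTPases had a median of -0.31, the class I genes -0.13, the neutrophil markers 0.02 and the smooth muscle markers 0.12, and no member of these 4 lists passed by limma. At an unadjusted p under 0.05 there were 0, 2, 0 and 1 of them. Ccl8 lay between 4.19 and 4.98 in CASP8 IEC-KO Mlkl -/- and between 4.53 and 5.49 in FADD IEC-KO Mlkl -/-, overlapping ranges with a difference of -0.72 (adjusted p = 0.195). Muc1 differed by 0.40 (adjusted p = 0.536). Whether the size of a difference changed with Mlkl was not tested here.

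Circadian clock genes were also read in the Mlkl -/- pair. None of the 16 passed by limma, though 13 had an unadjusted p under 0.05. Scores by array were compared without a test. A clock score, taken as the average of the activator-phase genes Clock, Npas2 and Arntl less the average of Ciart, Dbp, Nr1d1, Nr1d2, Per2, Per3 and Tef, lay between 1.70 and 2.70 in CASP8 IEC-KO Mlkl -/- and between -0.78 and 1.20 in FADD IEC-KO Mlkl -/-, with no overlap. With the score as a covariate 12 genes passed in place of 89, 9 of them among the 89. Score and deletion go together in these 2 groups, so their parts in the 89 calls cannot be told apart. In the single knockouts the scores overlapped, from -1.44 to 1.81 in CASP8 IEC-KO and from -0.47 to 2.28 in FADD IEC-KO. B4galnt2, a glycosyltransferase that puts blood-group-like sugars on gut epithelium, passed in both pairs. It lay between 8.24 and 9.27 in CASP8 IEC-KO Mlkl -/- and between 9.76 and 10.24 in FADD IEC-KO Mlkl -/-, a difference of -1.15 ± 0.24 (limma adjusted p = 0.018), against -0.74 ± 0.17 (adjusted p = 0.00675) in the single knockouts. In the single knockouts its values were 8.79, 9.29 and 9.88 as lowest, median and highest in CASP8 IEC-KO, and 9.49, 10.00 and 10.52 in FADD IEC-KO. Lrrc59, a ribosome-binding protein of the endoplasmic reticulum, was lower in both (-0.59 with Mlkl deleted, -0.39 in the single knockouts), and Bco2, a carotene-cleaving enzyme (1.09 and 0.57), and Crip1, a zinc-binding protein of intestine and immune cells (0.86 and 0.50), were higher in both. In the single knockouts the call of Lrrc59 held when any 1 array was left out. It was lost without FADD IEC-KO replicates 22 and 23 together and in the 20 arrays alone. Other genes that passed in both with the same sign were Crebl2, Pcmtd2, Slc16a1, Npy4r and Ermap, and Slc6a8 passed in both with opposite signs (-0.53 with Mlkl deleted, 0.33 in the single knockouts). The call of Bco2 in the single knockouts was lost without CASP8 IEC-KO replicate 18, 20, 100 or 108 or FADD IEC-KO replicate 22, 120 or 124 (adjusted p up to 0.111), and those of Crip1, Crebl2, Pcmtd2 and Slc16a1 were lost without FADD IEC-KO replicate 22, replicate 117 and others left out in turn, with adjusted p up to 0.132, 0.127, 0.117 and 0.138.

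Differences between the mouse lines were looked for in the floxed colons, whose targeted genes are intact. Casp8 fl/fl and Fadd fl/fl lie in different title series, so line and series cannot be told apart there, and 7 genes (0.0359%) differed, 2 higher (0.0103%) and 5 lower (0.0256%) in Casp8 fl/fl. Of these, 3 were among the 1000 with the same sign, which is 0.3% of the 1000 and 42.9% of the 7. Pisd-ps3, a pseudogene of a mitochondrial lipid enzyme, had 9.34, 9.70 and 10.01 as lowest, median and highest values in CASP8 IEC-KO, against 8.09, 8.42 and 8.88 in FADD IEC-KO, a difference of 1.27 ± 0.11 (limma adjusted p = 1.18e-10). It had 10.05, 9.78, 10.08, 9.91 and 9.75 in Casp8 fl/fl, against 8.91, 8.95, 8.79, 8.76 and 8.80 in Fadd fl/fl, a difference of 1.07 (adjusted p = 0.000699). Within the series of each floxed line, the difference from it was -0.20 (adjusted p = 0.538) for CASP8 IEC-KO and -0.48 (adjusted p = 0.0291) for FADD IEC-KO. With Mlkl deleted the 2 lines differed by 0.46 (adjusted p = 0.203). Ide, the insulin-degrading enzyme, had 9.07, 9.47 and 9.73 against 8.68, 8.88 and 9.22 in the knockouts, 0.58 ± 0.08 (adjusted p = 1.89e-05), and differed by 0.64 (adjusted p = 0.02) between the floxed lines. Prelid2 differed by -0.44 ± 0.08 (adjusted p = 0.000533) between the knockouts and by -0.54 (adjusted p = 0.0437) between the floxed lines. Zfp532, a zinc finger gene, was higher by 0.81 ± 0.10 in CASP8 IEC-KO (adjusted p = 2.48e-06), 1.24 in titles 1 to 30 and 0.38 in titles 86 to 124, and differed by 0.57 (adjusted p = 0.171) between the floxed lines.

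Ermap, a membrane protein of the butyrophilin family known from red blood cells, fell into low and high arrays. It had 5.06, 5.03, 5.16, 5.09, 5.52, 5.37, 5.57, 5.60, 5.19 and 5.35 in CASP8 IEC-KO, against 7.62, 6.34, 7.30, 5.39, 7.33, 7.48, 7.77, 5.71, 8.01 and 7.48 in FADD IEC-KO. In Fadd fl/fl it had 5.36, 5.42, 8.13, 8.00 and 5.46, so that high and low arrays were found within a floxed line, while Casp8 fl/fl ranged from 5.21 to 5.80. With Mlkl deleted it had 7.18, 5.48, 5.49, 5.13 and 5.44 in CASP8 IEC-KO Mlkl -/-, against 7.64, 7.48, 8.17, 7.96 and 8.22 in FADD IEC-KO Mlkl -/-. The differences were -1.75 ± 0.37 (limma adjusted p = 0.00336) in the single knockouts, -2.15 ± 0.52 (adjusted p = 0.0473) with Mlkl deleted and -0.98 (adjusted p = 0.54) between the floxed lines.

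The genes beside the targeted loci were read next. Of the 5 nearest measured genes on each side of Casp8, 1 of 10 passed, Mpp4 (-0.31, limma adjusted p = 0.0471), at 325 kb, and its call was lost when any 1 of 14 arrays was left out (adjusted p up to 0.143), the exceptions being CASP8 IEC-KO replicates 17 and 104 and FADD IEC-KO replicates 21, 89, 95 and 120. Of those beside Fadd 2 of 10 passed, Nadsyn1 (0.27, adjusted p = 0.0263), at 782 kb, and Ano1, at 10 kb. Of all genes 5.13% passed, and counts out of 10 are too small to set apart from that share. Ano1, the chloride channel of the pacemaker cells of gut muscle and of secretory epithelia, had 10.96, 11.34 and 11.59 as lowest, median and highest values in CASP8 IEC-KO, against 10.09, 11.09 and 11.16 in FADD IEC-KO. It was higher by 0.43 ± 0.09 (adjusted p = 0.0038), 0.39 in titles 1 to 30 and 0.46 in titles 86 to 124, and differed by -0.01 with Mlkl deleted. In the 20 arrays alone Ano1 did not pass, though its call held when any 1 array was left out and without FADD IEC-KO replicates 22 and 23. The call of Nadsyn1 was lost without FADD IEC-KO replicates 22, 23, 117 or 124 or CASP8 IEC-KO replicates 16, 92 or 108 (adjusted p up to 0.0765).

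The size of the difference could itself differ between the title series, and this was tested as an interaction. It passed for 12 genes (0.0616%), none of them a member of a gene list described here. Rundc1, a protein with a RUN domain, had 7.73, 7.67, 7.69, 7.38 and 7.79 in CASP8 IEC-KO, against 7.93, 8.02, 8.14, 7.85 and 7.93 in FADD IEC-KO of titles 1 to 30. In titles 86 to 124 it had 7.73, 7.93, 7.86, 7.88 and 7.73 in CASP8 IEC-KO, against 7.22, 7.42, 7.26, 7.23 and 7.49 in FADD IEC-KO. CASP8 IEC-KO arrays were thus all lower in one series and all higher in the other, with differences of -0.32 and 0.50. Etv3, a transcriptional repressor, differed by -0.39 and 0.62, Slc39a7, a zinc transporter, by -0.51 and 0.27, and Slc6a8, the creatine transporter, by -0.13 and 0.79, titles 1 to 30 first. Gpr137 (0.32 and -0.55) and Aldh3a2, a fatty aldehyde dehydrogenase (0.43 and -0.21), ran in the opposite order. Of these 6 only Slc6a8 passed in the average of the series (0.33, limma adjusted p = 0.0292), and it missed the limit without CASP8 IEC-KO replicate 16, 20, 92 or 100 or FADD IEC-KO replicate 22, 117 or 124 (adjusted p up to 0.0779). Between its own 2 series, FADD IEC-KO differed in 76 genes (0.39%) and CASP8 IEC-KO in 3 (0.0154%).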

How the data were processed

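Colon RNA of 50 mouse samples was measured on Affymetrix arrays, and 20 of them, CASP8 IEC-KO and FADD IEC-KO, were compared. The authors deposited log2 signals made with Affymetrix Expression Console and Transcriptome Analysis Console, per the submitters' processing notes. Neither the algorithm nor the versions are stated there. Array medians lay between 6.41 and 6.47, and the number of arrays limits the precision.

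Of 22142 probe sets, 19527 had 1 gene symbol and 2615 had none. Where a symbol had several probe sets the brightest was kept, which left 19494 genes. Groups were genotype within title series, from the labels. One limma model (version 3.58.1, R 4.3.3) was fitted to all 50 arrays in 10 groups of 5, with contrasts, eBayes and Benjamini-Hochberg adjustment over 19494 genes. The contrast was the mean of the 2 within-series differences, and the limit an adjusted p under 0.05. A fit of the 20 arrays alone is given as an alternative. The fit was run on simulated data with the same spread in every group. That run did not test unequal spread between groups or outlying arrays, which these data have.

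Members and gene lists were chosen with earlier results of these data known. Genes were named by rule: targeted and necroptosis genes, those with arrays apart in both series, up to 4 passing members of a list by adjusted p, those shared with the Mlkl -/- or floxed pair, those with the clearest series interaction, and neighbours of Casp8 and Fadd. The 41 genes of the 20-array fit, and other examples with their values, were chosen after values were seen. Promoters come from RefSeq, GRCm38.p6. Alternatives changed the arrays fitted, normalization, filter, moderation, weights, sex and clock covariates and arrays left out. The clock covariate for the Mlkl -/- pair and the list counts under each alternative were added after seeing the data.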

Additional observations from a re-analysis of the deposited data

Results flagged for a closer look

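Among 152 groups of 5 arrays looked at for the genes and lists shown by array, 9 held an array whose gap to its nearest neighbour was large for the group's range. Chance alone gives about 1 in 20 groups. In CASP8 IEC-KO, Tnfsf10 was 6.21 in replicate 16, with the other 4 arrays of titles 1 to 30 at 6.76 to 6.85. Ido1 was 9.85 in replicate 104, with the other arrays of titles 86 to 124 at 4.55 to 5.69, and H2-DMb1 was 10.22 there, with the others at 7.79 to 8.29. S100a8 was 5.73 in replicate 17, with the others at 2.72 to 3.57, and the mean of the neutrophil markers was 5.31 in the same array, with the others at 4.65 to 4.79. Ermap was 5.52 in replicate 20, with the others at 5.03 to 5.16. In FADD IEC-KO, H2-DMb1 was 8.46 in replicate 21, with the others of titles 1 to 30 at 10.64 to 10.92, and Ano1 was 10.09 in replicate 22, with the others at 10.91 to 11.11. Ermap was 5.71 in replicate 117, with the others of titles 86 to 124 at 7.48 to 8.01.

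The difference between CASP8 IEC-KO and FADD IEC-KO itself differed between the title series for 6 named genes, by limma's interaction test. The difference in titles 86 to 124 minus that in titles 1 to 30 was 0.82 for Rundc1 (adjusted p = 0.00061), 0.78 for Slc39a7 (adjusted p = 0.00349) and 1.01 for Etv3 (adjusted p = 0.00361). It was -0.87 for Gpr137 (adjusted p = 0.01), -0.64 for Aldh3a2 (adjusted p = 0.0288) and 0.92 for Slc6a8 (adjusted p = 0.0404). What the title series stand for is not given in the labels, and their part in these differences was not tested.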

How the results depend on the processing

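Counts are given for the single knockouts, titles 1 to 30, titles 86 to 124, the series interaction, the Mlkl -/- pair and the floxed pair, in that order, where they were 1000, 1315, 32, 12, 89 and 7 genes. Fitting only the arrays compared gave 41, 6, 5, 3, 270 and 2, and 1 variance weight per group gave 510, 842, 3, 1 and 731 for the first 5. Asking also for a log2 difference of at least 1 gave 59, 183, 6, 1, 7 and 1, by construction fewer. Quantile normalization moved the interaction to 19, the Mlkl -/- pair to 144 and the floxed pair to 3. Removing the dimmest 40% of genes gave 62 and 198 for the interaction and the Mlkl -/- pair, and trend and robust moderation 32 and 140. In the single knockouts, the 20 arrays with series as an additive block gave 45, leaving out FADD IEC-KO replicates 22 and 23 gave 135, leaving out those and CASP8 IEC-KO replicate 104 gave 394, and a clock score covariate gave 606 (12 in the Mlkl -/- pair). Apart from the size requirement, the cause of these changes was not tested. The sex covariate kept all 6 counts within 1.5 times. Leaving out each array in turn gave 417 to 1795, 236 (FADD IEC-KO replicate 22) to 2416 (FADD IEC-KO replicate 21), 14 (CASP8 IEC-KO replicate 92) to 101 (CASP8 IEC-KO replicate 104), 4 to 149, 8 to 114 and 1 to 12. Of 138 named genes that passed, 98 passed in every such fit, 57 without replicates 22 and 23 and 39 in the 20 arrays alone, and none changed sign. No paired analysis was possible because each array has a title number of its own and the groups share none. Genes dim on all arrays, such as Ifng and C6, are read less surely than bright ones.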

Other observations

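Further gene lists had few calls, to be read beside the 5.13% of all genes that passed. Of 21 enteroendocrine markers 1 was higher in CASP8 IEC-KO, Pcsk1n, an inhibitor of prohormone convertase (0.23 ± 0.07, limma adjusted p = 0.0449), and the list's median was 0.12. Of 17 mast cell and eosinophil markers 1 was lower, Alox15, a lipoxygenase that macrophages express too (-0.38 ± 0.10, adjusted p = 0.0197), with a median of -0.17. Of 21 genes of fatty acid oxidation and mitochondria 2 were higher, the acyl-CoA dehydrogenase Acadm (0.27 ± 0.06, adjusted p = 0.00849) and Pdk4, a kinase that holds back pyruvate oxidation (0.37 ± 0.11, adjusted p = 0.0381), with a median of 0.10. None of the members of these 3 lists passed by limma without FADD IEC-KO replicates 22 and 23, where 4, 3 and 5 had an unadjusted p under 0.05, or in the 20 arrays alone, where 4, 2 and 6 had. Of 17 pancreas and mesenteric fat markers, read because such tissue can adhere to gut samples, 1 was higher, Sycn, a protein of zymogen granules (0.92 ± 0.23, adjusted p = 0.0125), and 1 was lower, Zg16 (-0.18 ± 0.06, adjusted p = 0.0471), a lectin that goblet cells also secrete, with a median of 0.09. The calls of this last list were not counted without FADD IEC-KO replicates 22 and 23 or in the 20 arrays alone.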
